A study of Cucumis sativus with 9 samples.

Results

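The auxin signalling genes described here are the Aux/IAA, ARF and GH3 families of cucumber (Cucumis sativus), chosen by the Pfam entries in the descriptions deposited with the genes. A gene was a member when its description held PF02309 (AUX/IAA family), PF06507 (auxin response factor) or PF03321 (GH3 auxin-responsive promoter). The rule itself used no measured value, but it was chosen with earlier results of these data known. Of 24880 genes, 51 were members. A gene with PF06507 was counted as ARF whether or not it also held PF02309, which gave 26 Aux/IAA, 15 ARF and 10 GH3 genes. They were measured by RNA-seq in leaves of 3-week-old seedlings of the inbred line 9930 ('Chinese long'), raised at 25 °C by day and 18 °C by night with 16 h of light and 8 h of dark. HT0h is the untreated control, HT3h leaves after 3 h at 42 °C and HT6h leaves after 6 h at 42 °C, each with 3 libraries described as biological replicates. Unheated leaves of the later hours were not analysed here, so the length of heating and the hour of sampling cannot be told apart. The study left out HT3h_2 and HT6h_2 for poor uniformity, and the tests below rest on the other 7 libraries, with the counts of calls over all 9 given beside them.

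Auxin is perceived through an F-box receptor that binds an Aux/IAA protein and sends it to the proteasome, as worked out in Arabidopsis. Aux/IAA proteins repress by binding to ARF proteins, the transcription factors that sit on auxin response elements through a B3 DNA-binding domain, so that loss of the Aux/IAA protein frees the ARF. Many Aux/IAA genes and some GH3 genes are themselves early auxin-responsive genes, and GH3 enzymes join auxin, or in some members jasmonate, to amino acids. In leaves this pathway is best known for cell expansion, vein formation and growth responses to temperature.

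Levels are in FPKM, the fragments on a gene per kilobase of its length and relative to the depth of the library, which here followed a size factor between 0.901 and 1.15. Fragments on genes numbered 19040644 to 19596994 in the HT0h libraries, 18972139 to 22942239 in HT3h and 18996991 to 22598046 in HT6h. Any pair of libraries within a group differed beyond counting noise (chi-square over its degrees of freedom, 19.5 to 176.9), and each counted as 1 replicate. Chlorophyll a/b binding genes, 20 in number and a leaf marker, summed to 57580 to 64750 FPKM in HT0h, 22770 to 66870 in HT3h and 10560 to 24190 in HT6h. The Rubisco small chain gene, another leaf marker, was at 12900 to 15390 FPKM in HT0h, 6684 to 21310 in HT3h and 10540 to 24370 in HT6h. The 32 Hsp20 genes, a check of the heat label, summed to 333.3 to 383.5 FPKM in HT0h, 1478 to 1789 in HT3h and 696.5 to 797.4 in HT6h. The 27 core histone genes, a marker of dividing cells of which 3 were at 0 in all 9 libraries, summed to 8337 to 9033 FPKM in HT0h, 1725 to 1901 in HT3h and 1673 to 1716 in HT6h. The 31 cyclin genes, all detected, went from 884.9 to 935.5 FPKM in HT0h to 479.4 to 653.4 in HT3h and 511.3 to 559.9 in HT6h. Genes of phloem protein 2, 34 in number with 1 at 0 in all 9 libraries, went from 192.9 to 253.2 FPKM in HT0h to 268.9 to 428.0 in HT3h and 353.5 to 521.5 in HT6h. The 26 genes with the pollen Ole e 1 entry, 7 of them at 0 in all 9 libraries, summed to 1139 to 1648 FPKM in HT0h, 536.7 to 859.0 in HT3h and 636.5 to 710.6 in HT6h. The Hsp20, histone, cyclin, phloem protein 2 and Ole e 1 sums of the heated libraries lay outside the HT0h range at both times. The chlorophyll a/b binding sums were below that range at 6 h, and at 3 h they lay on both sides of it. The Rubisco small chain gene lay on both sides of its HT0h range at both times. The part of all these markers in the results below was not tested. In bulk leaf tissue, fewer cells of a type and less RNA per cell cannot be told apart.

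The 3 families differed in level and in place. At HT0h the median level was 11.7 FPKM for Aux/IAA, 14.3 FPKM for ARF and 2.53 FPKM for GH3, against 4.77 FPKM for all 24880 genes. The 51 members lay on all 7 chromosomes of the cucumber genome v3.0. Chromosome 2 held 9 Aux/IAA genes and chromosome 3 held 8, chromosome 6 held 6 ARF genes, and chromosomes 3 and 6 each held 4 GH3 genes. All 15 ARF genes also held the B3 entry, which 47 genes of the series carried, and 6 of the 15 held the AUX/IAA entry through which Aux/IAA and ARF proteins bind each other. Members of 6 neighbouring pairs, 12 genes in all, lay within 50000 bases of each other. Genes with a mean of 0.1 FPKM or more were tested, which kept all 26 Aux/IAA genes, all 15 ARF genes and 7 of the 10 GH3 genes. Of the other 3 GH3 genes, CsaV3_2G010160 and CsaV3_6G012660 had 0 fragments in every library, and CsaV3_3G005590 had 1 fragment in each of HT0h_1, HT3h_3 and HT6h_3.

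Some of the Aux/IAA genes fell under heat, and 13 of the 26 were called at neither time, while ARF and GH3 genes gave no call over the 7 libraries. A gene was called when limma, fitted to log2(FPKM + 0.1) over all genes, gave an adjusted p (Benjamini-Hochberg) not above 0.05 and a log2 fold change of at least 1 in size. At 3 h 9 of the 26 Aux/IAA genes were called and all 9 were lower, while 8.29% of the 19416 genes tested were called lower and 10.0% higher. At 6 h 10 Aux/IAA genes were called, again all lower, beside 10.0% of all genes called lower and 12.2% higher. Both times shared 6 of these genes, with 3 called only at 3 h and 4 only at 6 h, which made 13 at either time. The median log2 fold change of the 26 Aux/IAA genes was -0.97 at 3 h and -0.90 at 6 h, against -0.017 and -0.0016 over all genes. Their log2 fold change was below 0 for 22 of 26 genes at 3 h and for 21 at 6 h. With FPKM scaled to each library's own total of fragments, the median of all genes at 6 h moved to 0.19 and the calls over all genes went from 2377 higher of 4328 to 3087 higher of 4481, while 7 Aux/IAA genes at 3 h and 8 at 6 h were called, all lower, with a median of -0.71 at 6 h. Over all 9 libraries 8 Aux/IAA genes were called lower at each time and 0 higher, where 9.57% of genes at 3 h and 10.1% at 6 h were called lower, and 10.9% and 12.3% higher.

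**Figure D1:**
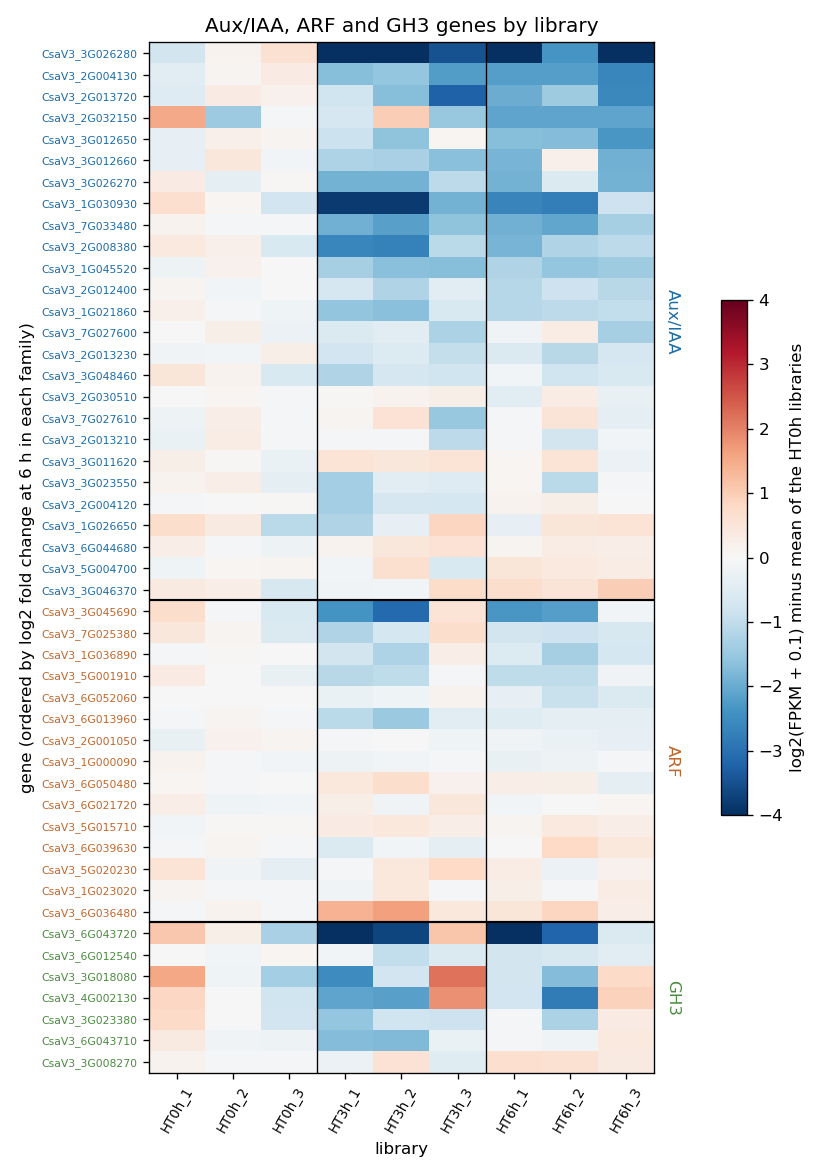
Level of each of the 48 tested members in each library, as log2(FPKM + 0.1) minus the mean of the 3 HT0h libraries, with Aux/IAA, ARF and GH3 genes in separate blocks and genes ordered by their log2 fold change at 6 h. Blue cells fill the heated libraries in the upper part of the Aux/IAA block, where 10 genes were called lower at 6 h, while the ARF block is mostly pale and single GH3 genes switch between red and blue within a group.

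Summed over the family, the Aux/IAA level was 518.6 to 583.0 FPKM in the HT0h libraries, 334.5 to 360.3 in HT3h and 337.0 to 355.9 in HT6h, over all 9 libraries. The heated libraries were all below the HT0h libraries, and HT3h and HT6h covered much the same range. No test was made on the sums. The share of the sum that came from its most abundant gene was 15.0 to 16.2% in HT0h, 25.5 to 27.8% in HT3h and 18.6 to 29.1% in HT6h. That gene was CsaV3_3G023550 in HT6h_1 and CsaV3_2G030510 in every other library. The summed ARF level was 262.6 to 293.9 FPKM in HT0h, 263.5 to 315.5 in HT3h and 242.4 to 266.7 in HT6h, so that the 3 groups overlapped. For GH3 the sums were 27.8 to 53.5 FPKM in HT0h, 20.9 to 57.5 in HT3h and 33.5 to 46.9 in HT6h, with each heated group inside or around the HT0h range. Of single genes, 16 of 26 Aux/IAA genes at 3 h and 13 at 6 h had all 3 heated libraries below all 3 HT0h libraries, where 25.3% and 27.0% of the 19468 genes did. The opposite order was seen in 1 Aux/IAA gene at 3 h and 2 at 6 h, where 26.0% and 27.1% of genes showed it.

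**Figure D2:**
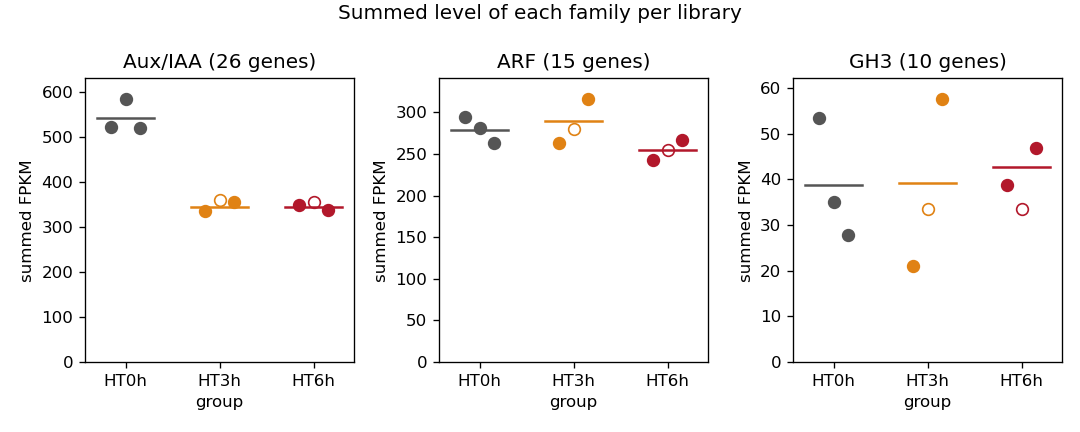
Summed FPKM of the 26 Aux/IAA, 15 ARF and 10 GH3 genes in each library by group, with filled points for the 7 libraries tested, open points for HT3h_2 and HT6h_2 and a line at the mean of the filled points. The Aux/IAA sums of all 6 heated libraries, 334.5 to 360.3 FPKM, lie below the lowest HT0h sum of 518.6 FPKM, whereas the ARF and GH3 sums overlap between groups.

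The Aux/IAA genes that fell included abundant ones of control leaves. CsaV3_1G045520 (chromosome 1, 31330389 to 31333448) was at 35.6, 46.3 and 40.9 FPKM in HT0h, 16.3, 12.6 and 12.4 in HT3h, and 17.7, 14.0 and 15.1 in HT6h, in replicate order as in all such lists here. Every heated library was below every control library, and the heated groups overlapped. It changed on the log2 scale by -1.51 ± 0.18 (SE) at 3 h (limma, adjusted p = 0.00146) and -1.31 ± 0.18 at 6 h (limma, adjusted p = 0.00189), from 3 HT0h and 2 libraries of each heated group. CsaV3_7G033480 (chromosome 7, 21096314 to 21100680) was at 35.7, 31.3 and 30.9 FPKM in HT0h, 8.53, 7.12 and 10.6 in HT3h, and 8.60, 7.63 and 12.8 in HT6h. The 6 heated libraries again lay below all controls, with log2 fold changes of -1.77 ± 0.20 at 3 h (limma, adjusted p = 0.00128) and -1.62 ± 0.20 at 6 h (limma, adjusted p = 0.00139). CsaV3_2G004130 (chromosome 2, 2140306 to 2142296) was at 18.6, 27.2 and 31.4 FPKM in HT0h, 7.71, 8.62 and 5.25 in HT3h, and 5.35, 5.34 and 4.05 in HT6h. Here too all heated libraries were below the controls, and the log2 fold change was -1.97 ± 0.28 at 3 h (limma, adjusted p = 0.0028) and -2.41 ± 0.28 at 6 h (limma, adjusted p = 0.00109). These 3 genes were called at both times over all 9 libraries and in each of the 21 alternative settings tried.

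CsaV3_1G021860 (chromosome 1, 12823937 to 12827995), the most abundant Aux/IAA gene called, was at 51.1, 42.6 and 39.0 FPKM in HT0h, 14.6, 13.8 and 28.6 in HT3h, and 19.99, 21.0 and 22.1 in HT6h. HT3h_3 stood about midway between the other HT3h libraries and the controls, and no heated library reached a control. The log2 fold changes were -1.10 ± 0.28 at 3 h (limma, adjusted p = 0.0218) and -1.06 ± 0.28 at 6 h (limma, adjusted p = 0.0219), close to the threshold of 1. Without HT3h_1 the 3 h value was -0.62 (limma, adjusted p = 0.0574), and without HT0h_1 or HT0h_2 it was -0.99 and -1.12 (adjusted p = 0.0678 and 0.0572), none of them a call. At 6 h the call was lost when any 1 of HT0h_1, HT0h_2, HT6h_1 or HT6h_3 was left out, with log2 fold changes of -1.13 to -0.95 and adjusted p of 0.0565 to 0.115. Over all 9 libraries it was called at both times, at -1.29 and -1.06.

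**Figure D3:**
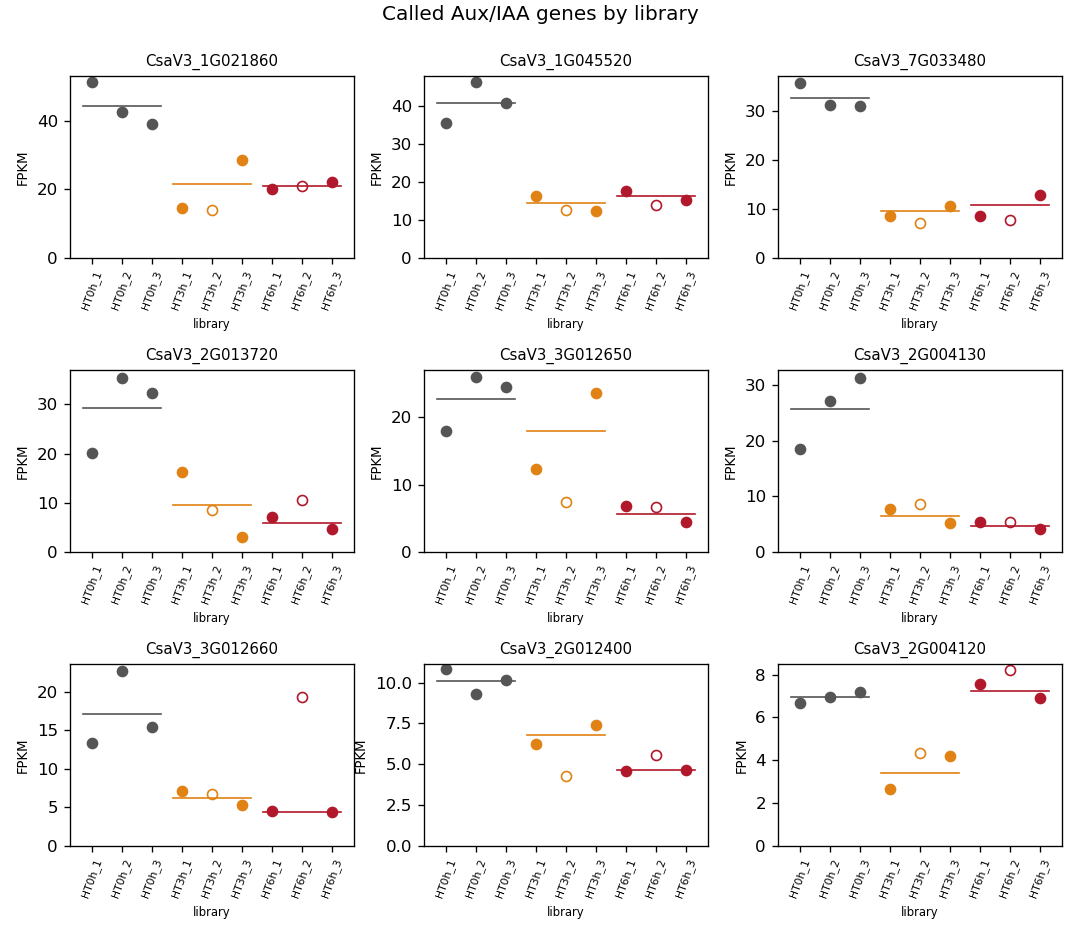
FPKM by library of the 9 called Aux/IAA genes with the highest mean level, with filled points for the 7 libraries tested, open points for HT3h_2 and HT6h_2 and a line at the mean of the filled points in each group. In CsaV3_1G045520, CsaV3_7G033480 and CsaV3_2G004130 all heated libraries lie well below the controls, CsaV3_3G012650 has HT3h_3 at control level, CsaV3_3G012660 has HT6h_2 at control level, and CsaV3_2G004120 is low in HT3h alone.

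The next genes fell at 6 h without a call at 3 h over the 7 libraries. CsaV3_3G012650 (chromosome 3, 9663140 to 9665773) was at 17.9, 26.0 and 24.5 FPKM in HT0h, 12.3, 7.36 and 23.7 in HT3h, and 6.80, 6.64 and 4.37 in HT6h. HT3h_3 was at the level of the controls while the 3 HT6h libraries were below every other library. The log2 fold change was -0.40 ± 0.33 at 3 h (limma, adjusted p = 0.39) and -2.03 ± 0.33 at 6 h (limma, adjusted p = 0.00362), and the 6 h call held in all 21 alternatives. CsaV3_2G012400 (chromosome 2, 9951727 to 9954895) was at 10.8, 9.33 and 10.2 FPKM in HT0h, 6.26, 4.29 and 7.37 in HT3h, and 4.56, 5.58 and 4.67 in HT6h. All heated libraries were below the controls, with -0.56 ± 0.17 at 3 h (limma, adjusted p = 0.0385), short of the fold threshold, and -1.11 ± 0.17 at 6 h (limma, adjusted p = 0.00272). Over all 9 libraries the values were -0.78 and -1.02, with a call at 6 h alone. The 6 h call was lost with a pseudocount of 1 and at each library's own total of fragments. Its weakest value over the 21 alternatives was -0.92. CsaV3_2G013720 (chromosome 2, 11262930 to 11265686) was at 20.1, 35.4 and 32.4 FPKM in HT0h, 16.3, 8.60 and 2.91 in HT3h, and 7.18, 10.6 and 4.64 in HT6h. The HT3h libraries were spread over 5.59-fold, the widest range of an Aux/IAA gene in that group among the 21 genes with a mean of 1 FPKM or more. Its log2 fold change was -2.02 ± 0.66 at 3 h (limma, adjusted p = 0.0522) and -2.28 ± 0.66 at 6 h (limma, adjusted p = 0.0314). Over all 9 libraries it was also called at 6 h, at -1.99 (limma, adjusted p = 0.0239). At 3 h it was called over all 9 libraries (-1.92, adjusted p = 0.0294) and without HT3h_1 (-3.24, adjusted p = 0.00478). At 6 h the call was lost without HT0h_2, HT0h_3, HT6h_1 or HT6h_3, with values from -2.59 to -1.97 and adjusted p from 0.0829 to 0.161.

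CsaV3_3G012660 (chromosome 3, 9679911 to 9681642) depended on a library that the study left out. Its level was 13.3, 22.7 and 15.5 FPKM in HT0h, 7.11, 6.73 and 5.24 in HT3h, and 4.52, 19.4 and 4.35 in HT6h. HT6h_2 was at control level and the 5 other heated libraries were below all controls. Over the 7 libraries the gene was called at both times, at -1.44 ± 0.26 (limma, adjusted p = 0.0063) and -1.89 ± 0.26 (limma, adjusted p = 0.00192). Over all 9 it was called at neither, at -1.39 (limma, adjusted p = 0.0661) and -1.19 (limma, adjusted p = 0.102).

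CsaV3_2G004120 (chromosome 2, 2122571 to 2126942) was low after 3 h and at control level after 6 h. It stood at 6.69, 6.94 and 7.19 FPKM in HT0h, 2.64, 4.34 and 4.18 in HT3h, and 7.58, 8.22 and 6.93 in HT6h. The HT3h libraries were below all others and the HT6h libraries overlapped the controls. At 3 h the log2 fold change was -1.04 ± 0.23 (limma, adjusted p = 0.0135) and at 6 h 0.06 ± 0.23 (limma, adjusted p = 0.852). The 3 h value fell short of the fold threshold over all 9 libraries, at -0.91 (limma, adjusted p = 0.0132), and without HT3h_1, at -0.72 (limma, adjusted p = 0.0432). The direct difference between 6 h and 3 h was 1.10 ± 0.25 (limma, adjusted p = 0.15) and was not called.

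The other called Aux/IAA genes were near the floor of detection. CsaV3_2G008380 (chromosome 2, 4666821 to 4669233) was at 2.34, 2.04 and 1.13 FPKM in HT0h, 0.206, 0.184 and 0.773 in HT3h, and 0.408, 0.707 and 0.808 in HT6h. All heated libraries were below the controls, from 75 fragments in the HT0h libraries against 15 in HT3h_1 and HT3h_3, a ratio of 3.69 after depth (95% exact interval 2.10 to 6.92, counting error only). Its log2 fold change was -1.84 ± 0.57 at 3 h (limma, adjusted p = 0.046), and the call was lost in 15 of the 21 alternatives, among them the omission of any library but HT3h_3, with values of -2.14 to -1.09 and adjusted p of 0.0549 to 0.212. At 6 h it was -1.45 (limma, adjusted p = 0.0862), called without HT3h_1 or HT3h_3 (adjusted p = 0.0446 and 0.0481). Over all 9 libraries CsaV3_2G008380 was called lower at 3 h (-2.13, limma, adjusted p = 0.0139) and not at 6 h (-1.37, limma, adjusted p = 0.0692). CsaV3_3G026280 (chromosome 3, 22400106 to 22401040) had 12, 23 and 31 fragments in HT0h, 0, 0 and 1 in HT3h, and 0, 4 and 0 in HT6h. With the floor of 3 fragments put in for the 2 tested HT6h libraries it was 16.6-fold lower there. The exact 95% lower limit from the counts of 66 and 0 fragments was 13.15-fold. Over all 9 libraries the ratio of HT0h to HT6h was 19.3 (95% exact interval 7.21 to 73.1). It was called lower at both times over the 7 and over the 9 libraries (limma, adjusted p = 0.00273 and 0.00151 over the 7).

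CsaV3_1G030930 (chromosome 1, 17962388 to 17964222) had 48, 31 and 16 fragments in HT0h, 0, 0 and 7 in HT3h, and 3, 3 and 18 in HT6h. It was called lower at 3 h (limma, adjusted p = 0.0329), with 10.0 times fewer fragments in HT3h_1 and HT3h_3 than in HT0h after depth (95% exact interval 4.68 to 25.6). Leaving out HT0h_1, HT0h_2 or HT3h_1 ended the call, at log2 fold changes of -2.53, -2.83 and -1.91 (limma, adjusted p = 0.0992, 0.0859 and 0.16). Over all 9 libraries CsaV3_1G030930 was called lower at 3 h (-3.19, limma, adjusted p = 0.0109) and not at 6 h (-2.08, limma, adjusted p = 0.054). CsaV3_3G026270 (chromosome 3, 22394478 to 22395338) had 4, 2 and 3 fragments in HT0h, 0, 0 and 1 in HT3h, and 0, 2 and 0 in HT6h. At 6 h over the 7 libraries it was 2.27-fold lower against the floor of 3 fragments, with an exact 95% lower limit of 1.49-fold from the counts. It was called there (limma, adjusted p = 0.0341) and not over all 9 libraries (adjusted p = 0.0698). Omitting HT0h_2, HT0h_3, HT6h_1 or HT6h_3 also ended the call, with adjusted p of 0.0553 to 0.0988, and without HT0h_1 the gene fell under the level filter. At 9 fragments in all of HT0h, the size of this difference is poorly known.

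The other 13 Aux/IAA genes were called at neither time over the 7 libraries, and the 2 most abundant members of the family were among them. CsaV3_2G030510 (chromosome 2, 20037726 to 20045362) was at 84.7, 87.6 and 79.2 FPKM in HT0h, 85.7, 92.0 and 98.4 in HT3h, and 63.1, 103.6 and 67.6 in HT6h. The HT3h libraries overlapped the controls, and HT6h_2 stood above all other libraries while HT6h_1 and HT6h_3 stood below them. Its log2 fold changes were 0.13 ± 0.13 at 3 h (limma, adjusted p = 0.463) and -0.36 ± 0.13 at 6 h (limma, adjusted p = 0.0633). CsaV3_3G023550 (chromosome 3, 21272247 to 21274808) was at 68.4, 75.1 and 47.2 FPKM in HT0h, 24.4, 45.2 and 43.5 in HT3h, and 65.2, 29.5 and 59.2 in HT6h. The HT3h libraries were below the controls and the HT6h libraries overlapped them. It had -0.93 ± 0.29 at 3 h (limma, adjusted p = 0.0432), under the fold threshold, and -0.01 ± 0.29 at 6 h (limma, adjusted p = 0.991), and it was called lower at 3 h without HT0h_3 (-1.14, adjusted p = 0.0345) or without HT3h_3 (-1.35, adjusted p = 0.0157). The other 11 uncalled Aux/IAA genes had log2 fold changes of -1.09 to 0.56 at 3 h and of -2.12 to 0.84 at 6 h. Both lowest values were those of CsaV3_2G032150, a gene chosen after its values were seen, with 19, 1 and 5 fragments in HT0h, 3, 15 and 1 in HT3h, and 0 in each HT6h library. Most of its HT0h fragments came from HT0h_1, and it was not called at 6 h over the 7 libraries (limma, adjusted p = 0.0964) or over all 9 (adjusted p = 0.0792).

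**Figure D4:**
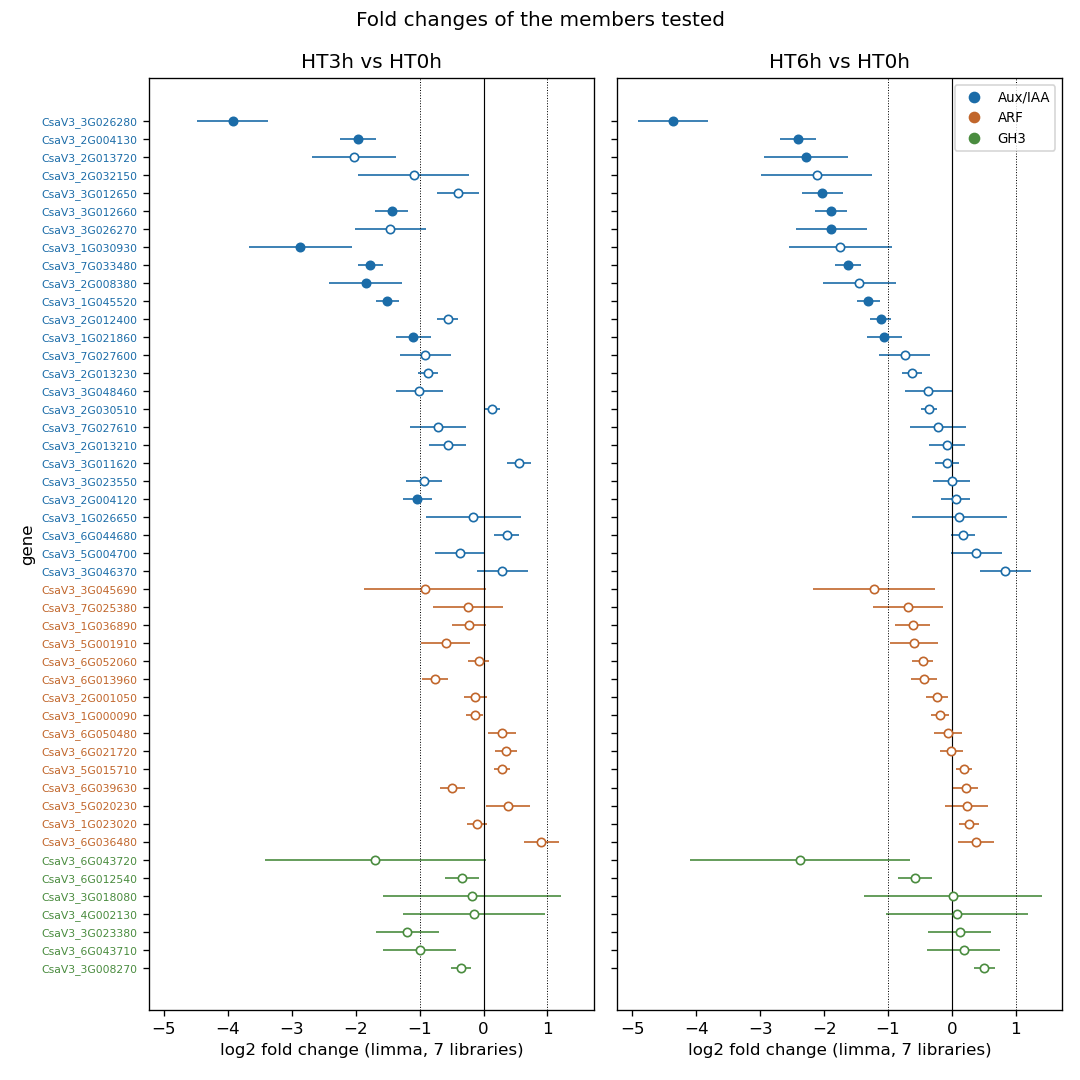
Log2 fold change of each tested member at 3 h (left) and 6 h (right) against HT0h, from limma over 7 libraries, with bars of 1 standard error, filled points for called genes and dotted lines at -1 and 1. All filled points are Aux/IAA genes to the left of -1, 9 at 3 h and 10 at 6 h, and the bars of several GH3 genes span both sides of 0.

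The ARF genes, the transcription factors of the pathway, gave 0 calls among 15 at 3 h and at 6 h over the 7 libraries. At an unadjusted p under 0.05 limma had 4 ARF genes at 3 h and 1 at 6 h, beside 8565 and 9320 of 19416 genes. Limma voom on recovered fragments called 0 ARF genes at both times over the 7 libraries. Over all 9 libraries voom called 2 at 3 h, 1 higher and 1 lower, and 0 at 6 h. Their median log2 fold change was -0.13 at 3 h and -0.19 at 6 h. CsaV3_5G015710 (chromosome 5, 13139550 to 13148870), the most abundant ARF gene, was at 65.7, 72.8 and 72.6 FPKM in HT0h, 88.5, 95.2 and 83.9 in HT3h, and 76.1, 93.0 and 84.4 in HT6h. All heated libraries were above the controls, with log2 fold changes of 0.29 ± 0.12 (limma, adjusted p = 0.111) and 0.19 ± 0.12 (limma, adjusted p = 0.266). CsaV3_1G000090 (chromosome 1, 68012 to 78346) was at 42.8, 38.3 and 36.7 FPKM in HT0h, 34.1, 36.1 and 37.4 in HT3h, and 31.8, 33.8 and 37.3 in HT6h. The ranges overlapped at both times, with -0.13 ± 0.13 (limma, adjusted p = 0.476) and -0.19 ± 0.13 (limma, adjusted p = 0.309).

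In 2 ARF genes the 3 h call depended on which HT3h libraries were used. CsaV3_6G036480 (chromosome 6, 20280542 to 20284719) was at 11.7, 13.7 and 11.8 FPKM in HT0h, 32.6, 38.4 and 16.5 in HT3h, and 17.5, 22.7 and 14.8 in HT6h. All heated libraries were above the controls, HT3h_3 by the least among the HT3h libraries. Its log2 fold change at 3 h was 0.91 ± 0.28 over the 7 libraries (limma, adjusted p = 0.0427), 1.15 ± 0.30 over all 9 (limma, adjusted p = 0.0183, called higher) and 1.40 without HT3h_3 (limma, adjusted p = 0.00491). CsaV3_6G013960 (chromosome 6, 10156022 to 10160149) moved the other way, at 14.0, 15.3 and 13.7 FPKM in HT0h, 6.70, 5.03 and 10.4 in HT3h, and 10.1, 10.9 and 11.0 in HT6h. All heated libraries were below the controls, with -0.76 ± 0.20 at 3 h over the 7 libraries (limma, adjusted p = 0.0275), -1.01 ± 0.24 over all 9 (limma, adjusted p = 0.013, called lower) and -1.08 without HT3h_3 (limma, adjusted p = 0.00745). Over all 9 libraries these were the only ARF calls at 3 h by limma on log2(FPKM + 0.1), beside 10.9% of genes called higher and 9.57% lower. No ARF gene was called at 6 h over the 9, where 2 had an unadjusted p under 0.05, beside 8990 of 19468 genes.

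The 6 ARF genes that also hold the AUX/IAA entry summed to 166.1 to 189.7 FPKM in HT0h, 156.5 to 204.3 in HT3h and 146.6 to 175.1 in HT6h. In HT0h they took up the larger share of the family's sum, and the 3 groups overlapped. The 9 without it summed to 96.5 to 105.0 FPKM in HT0h, 107.0 to 118.4 in HT3h and 91.5 to 99.9 in HT6h. For these the HT3h libraries were above all HT0h libraries and the HT6h libraries overlapped the controls. The separation at 3 h was lost at each library's own total of fragments, where HT3h_1 was at 97.6 FPKM and the HT0h libraries at 92.1 to 102.7. CsaV3_6G036480 alone made up 30.5% of the sum in HT3h_1 and 32.4% in HT3h_2.

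The GH3 genes, the amino acid conjugating enzymes, gave 0 calls among 7 tested at 3 h and at 6 h over the 7 libraries. At an unadjusted p under 0.05 there was 1 gene at each time by limma, beside 8565 and 9320 of 19416 genes. Limma voom called 0 at both times. Over all 9 libraries limma again called 0 at both times. There 1 and 0 genes had an unadjusted p under 0.05, beside 8625 and 8990 of 19468 genes. Voom over all 9 called CsaV3_6G043710 lower at 3 h. That gene (chromosome 6, 25769651 to 25772023) had 17, 11 and 10 fragments in HT0h, 1, 1 and 11 in HT3h, and 13, 13 and 21 in HT6h, so that HT3h_1 and HT3h_2 were low and HT3h_3 was at control level. The most abundant GH3 gene, CsaV3_3G008270 (chromosome 3, 7060010 to 7064110), was at 20.5, 17.9 and 17.8 FPKM in HT0h, 16.0, 28.0 and 13.3 in HT3h, and 29.8, 28.8 and 23.8 in HT6h. The HT6h libraries were above all controls and the HT3h libraries lay on both sides of them. Its log2 fold change was -0.35 ± 0.16 at 3 h (limma, adjusted p = 0.131) and 0.51 ± 0.16 at 6 h (limma, adjusted p = 0.0413), under the fold threshold, and 0.55 over all 9 libraries (limma, adjusted p = 0.121).

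Several GH3 genes varied widely between the libraries of a group. Among the 6 with a mean of 1 FPKM or more, the median ratio of the highest to the lowest library was 3.11 in HT0h, 9.62 in HT3h and 4.80 in HT6h. It was 1.25, 1.55 and 1.51 over the 16288 genes with a mean of 1 FPKM or more over the 9 libraries and no library at 0. Genes with a library at 0 were thus left out of that background. CsaV3_4G002130 (chromosome 4, 1252025 to 1254723), the next most abundant GH3 gene, was at 9.82, 5.48 and 3.12 FPKM in HT0h, 1.20, 1.15 and 19.7 in HT3h, and 3.22, 0.701 and 10.5 in HT6h. Both the highest and nearly the lowest value were thus in HT3h, and the log2 fold changes of -0.15 ± 1.11 (limma, adjusted p = 0.934) and 0.08 ± 1.11 (limma, adjusted p = 0.965) give no direction. CsaV3_3G018080 (chromosome 3, 13832146 to 13836255) was at 8.63, 2.56 and 1.07 FPKM in HT0h, 0.426, 1.67 and 13.3 in HT3h, and 1.70, 0.797 and 5.02 in HT6h. CsaV3_6G043720 (chromosome 6, 25787847 to 25790359) had the widest spread, at 7.71, 4.32 and 1.40 FPKM in HT0h, 0.0653, 0.194 and 7.96 in HT3h, and 0.108, 0.317 and 2.38 in HT6h. In all 3 genes HT3h_3 was above every HT0h library, HT0h_1 was the highest control, and HT6h_3 was the highest HT6h library.

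**Figure D5:**
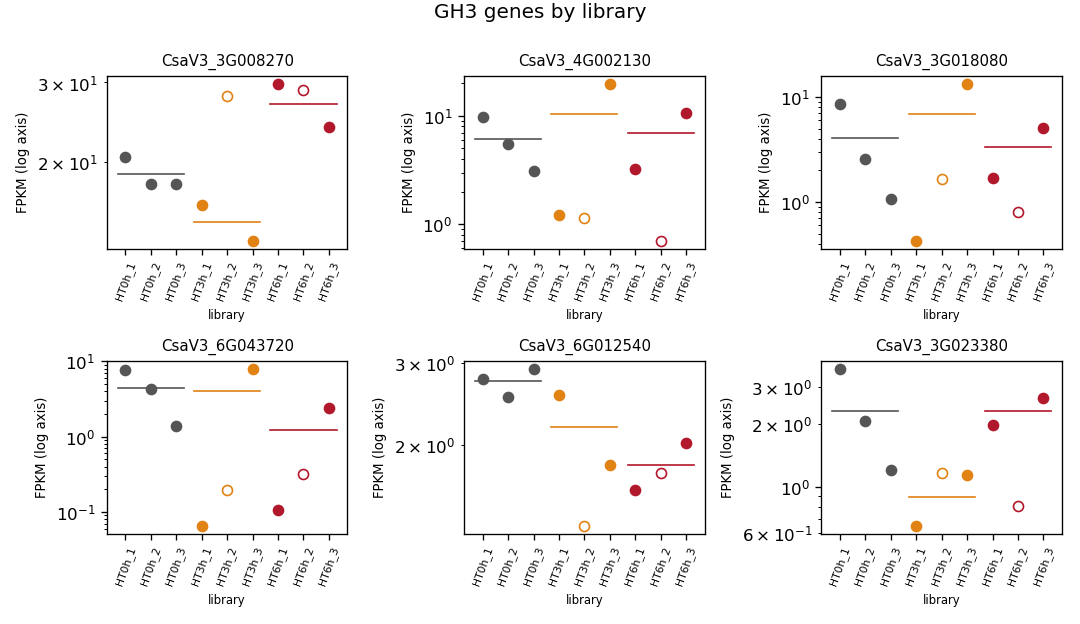
FPKM by library, on a log axis, of the 6 GH3 genes with a mean of 1 FPKM or more, with filled points for the 7 libraries tested, open points for HT3h_2 and HT6h_2 and a line at the mean of the filled points. In CsaV3_4G002130, CsaV3_3G018080 and CsaV3_6G043720 HT3h_3 lies far above both other HT3h libraries, while CsaV3_6G012540 stays between 1.34 and 2.92 FPKM. In CsaV3_6G043720 HT3h_3 is 121.8-fold above the lowest of its group, HT3h_1, which had 3 fragments.

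An ARF gene shared part of this pattern, but its HT3h_3 level was below that of HT0h_1. CsaV3_3G045690 (chromosome 3, 37338045 to 37342538), which like the last 2 GH3 genes was chosen after its values were seen, was at 23.1, 13.3 and 9.22 FPKM in HT0h, 2.62, 1.53 and 20.7 in HT3h, and 2.72, 2.99 and 13.2 in HT6h. HT3h_3 was 4-fold or more above both other HT3h libraries in 4 of 41 members with a mean of 1 FPKM or more over the 9 libraries, namely this gene and the 3 GH3 genes above, and in 1.28% of 16585 genes of that level. HT6h_3 was so far above the other HT6h libraries in 2 of the 41 members, CsaV3_3G045690 and CsaV3_6G043720, and in 0.832% of genes. HT3h_3 also had the lowest levels of the leaf markers in its group, with the Rubisco small chain gene at 6684 FPKM against 21310 and 17890 in HT3h_1 and HT3h_2, and chlorophyll a/b binding genes at 22770 FPKM against 66870 and 52960. Likewise HT6h_3 was the lowest of its group, with the Rubisco small chain gene at 10540 FPKM against 17980 and 24370, and chlorophyll a/b binding genes at 10560 FPKM against 19490 and 24190. The part of these marker levels in the spread was not tested.

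Neighbouring members of a family are set side by side here, with no test of the difference between them. On chromosome 2, CsaV3_2G004120 and CsaV3_2G004130 lay on opposite strands with 13364 bases between them, and the first was at control level at 6 h while the second was at its lowest. On chromosome 3, CsaV3_3G012650 and CsaV3_3G012660 lay 14138 bases apart on opposite strands, with -0.40 and -1.44 at 3 h and -2.03 and -1.89 at 6 h over the 7 libraries. Over all 9 these were -0.80 and -1.39 at 3 h, neither of them called, and -1.93 and -1.19 at 6 h, the first called. CsaV3_3G026270 and CsaV3_3G026280, 4768 bases apart on the same strand, were both near 0 in heated leaves. The other pairs of the Aux/IAA family were CsaV3_2G013210 with CsaV3_2G013230 and CsaV3_7G027600 with CsaV3_7G027610, none of them called. Of these CsaV3_2G013230, chosen after its values were seen, had an adjusted p of 0.05 or less at both times with changes under the fold threshold, at -0.87 (limma, adjusted p = 0.00599) and -0.63 (limma, adjusted p = 0.0174). How fragments shared by similar neighbours were counted is not given in the sources used here, so their separate levels are uncertain to that extent.

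From 3 h to 6 h no member was called. Of the 48 members tested 0 passed in limma, where 0.201% of all genes did, and limma voom on recovered fragments also called 0. At an unadjusted p under 0.05 limma had 9 of the 48 members, beside 2380 of 19416 genes. Over all 9 libraries limma called 0 members, beside 0.375% of genes, with 7 members and 1806 of 19468 genes at an unadjusted p under 0.05. The lowest adjusted p was that of the GH3 gene CsaV3_3G008270, higher at 6 h by 0.86 ± 0.17 on the log2 scale (limma, adjusted p = 0.125). The Aux/IAA gene CsaV3_3G012650 followed, with -1.63 ± 0.36 (limma, adjusted p = 0.145). Genes called at only 1 of the 2 times are therefore not shown to differ between them.

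Other genes of the auxin pathway, taken by Pfam entry, were called in both directions, as were all genes, of which 10.0% were higher and 8.29% lower at 3 h, and 12.2% higher and 10.0% lower at 6 h. At 6 h the PIN and PILS type carriers, which move auxin across membranes, had 2 of 10 tested genes called, both higher. At 3 h 0 were called and 2 had an unadjusted p under 0.05, beside 8565 of 19416 genes, and voom called 0. Over all 9 libraries 1 of 11 carriers was called higher at 3 h and 3 at 6 h, beside 10.9% and 12.3% of genes. CsaV3_4G027450 was at 7.33, 7.16 and 7.94 FPKM in HT0h, 13.3, 18.2 and 12.3 in HT3h, and 17.5, 18.2 and 17.6 in HT6h, a log2 fold change of 1.22 ± 0.13 at 6 h (limma, adjusted p = 0.000941). CsaV3_4G037660 rose by 1.82 ± 0.44 (limma, adjusted p = 0.0175), a call lost without HT0h_3, HT6h_1 or HT6h_3, at 1.62 to 1.96 with adjusted p of 0.0537 to 0.103. Of the TAA1/TAR type aminotransferases, which make the auxin precursor indole-3-pyruvate, the only gene tested of 2, CsaV3_1G001250, was at 7.89, 9.31 and 7.86 FPKM in HT0h, 3.95, 3.43 and 4.32 in HT3h, and 3.39, 4.77 and 1.36 in HT6h. All heated libraries were below the controls, and it was called at 6 h, at -1.90 ± 0.36 (limma, adjusted p = 0.00648). Over all 9 libraries it was called at 6 h as well, at -1.53 (limma, adjusted p = 0.0159), and not at 3 h. Flavin monooxygenase-like genes, a group that holds the YUCCA enzymes of auxin synthesis among others, had 2 of 11 called higher and 0 lower at 3 h, and 2 higher and 1 lower at 6 h. Over all 9 libraries 2 of 10 were called higher and 0 lower at 3 h, and 3 higher and 1 lower at 6 h. CsaV3_6G012670 rose at both times, by 2.33 (limma, adjusted p = 0.00344) and by 3.07 ± 0.35 (limma, adjusted p = 0.00108), and CsaV3_6G007230 rose by 2.38 ± 0.56 at 6 h (limma, adjusted p = 0.0156), not called without HT6h_3 (1.82, adjusted p = 0.107).

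Peptidase M20 genes, which include the hydrolases that free auxin from amino acids, had 4 of 13 called higher at 6 h over the 7 libraries, and 2 over all 9. CsaV3_3G049280 was at 8.60, 3.32 and 5.37 FPKM in HT0h, 16.3, 6.11 and 12.8 in HT3h, and 23.1, 5.47 and 161.6 in HT6h, with HT6h_3 far above the rest, a log2 fold change of 3.49 ± 0.76 (limma, adjusted p = 0.0116), and no call over all 9 libraries (2.34, adjusted p = 0.105). Leaving out 1 library at a time moved this value between 2.09 and 4.89. CsaV3_6G034390 rose by 1.27 ± 0.32 (limma, adjusted p = 0.0201) and was not called over all 9 (adjusted p = 0.106) or without HT0h_2, HT0h_3 or HT6h_1, at 1.02 to 1.23 with adjusted p of 0.0553 to 0.127. At 3 h 1 of the 13 was called, higher, and over all 9 libraries 1 was higher and 1 lower. Dormancy/auxin associated genes had 2 of 4 called higher and 1 lower at 6 h, with CsaV3_6G050280 at 3.66 ± 1.00 (limma, adjusted p = 0.0262) and CsaV3_1G038820 at 2.56 ± 0.72 (limma, adjusted p = 0.0286). Without HT6h_1 or HT6h_3 the first was no longer called, at 3.24 to 4.08 with adjusted p of 0.083 to 0.139, and without those or HT0h_2 neither was the second, at 2.18 to 2.94 with adjusted p of 0.0637 to 0.156. At 3 h 1 of the 4 was called, lower, and the counts of this list were the same over all 9 libraries at both times. The SAUR genes, small auxin-inducible genes tied to cell expansion, had 5 of 36 called higher and 9 lower at 6 h, and 3 higher and 8 lower at 3 h. As shares these were 13.9% higher and 25.0% lower at 6 h and 8.33% higher and 22.2% lower at 3 h, beside the shares of all genes given above. Over all 9 libraries 3 SAUR genes were called higher and 10 lower at 6 h, and 3 higher and 8 lower at 3 h. Of all genes over the 9, 12.3% were higher and 10.1% lower at 6 h, and 10.9% higher and 9.57% lower at 3 h. CsaV3_2G015520 was at 21.1, 28.0 and 12.0 FPKM in HT0h, 7.75, 5.22 and 3.55 in HT3h, and 2.86, 2.62 and 2.01 in HT6h, a log2 fold change of -2.95 ± 0.44 at 6 h (limma, adjusted p = 0.00275). CsaV3_7G000680 fell by 3.78 ± 0.48 on the log2 scale (limma, adjusted p = 0.00154), and both calls held in all 21 alternatives.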

How the data were processed

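The 9 RNA-seq libraries of cucumber came from leaves heated at 42 °C for 0, 3 or 6 h, 3 libraries at each time. Each library has its own table of FPKM values deposited by the authors, with gene length, position, strand and Pfam description for 24880 genes, 24317 of them CsaV3 models of the cucumber genome v3.0. The submitters' processing notes name CASAVA 1.8, HISAT2 2.0.5, StringTie 1.3.3b and featureCounts 1.5.0-p3. As for strandedness and the counting of fragments shared by similar genes, both were not given in the sources used here. FPKM multiplied by gene length gave whole fragments for 100% of values within 0.02 of a fragment. The depth implied was the geometric mean of the 9 totals times a size factor (median of ratios, all 9 libraries together), so that HT3h_2 and HT6h_2 entered the scale of the others.

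Differences between time points were tested on log2(FPKM + 0.1) by limma 3.58.1 (R 4.3.3), in 1 fit of the 3 groups without covariates and with the trend option, which left 4 residual degrees of freedom over the 7 libraries the study kept. Tested were the genes whose mean FPKM reached 0.1, 19416 over 7 and 19468 over 9 libraries. The added 0.1 draws the log2 fold change of low genes towards 0. Whether a library is 1 plant or several is not given, so p-values measure the spread between these libraries. The 95% intervals of fragment ratios are exact (Clopper-Pearson), and like the floor of 3 fragments they take in counting error alone. The fits were also run on simulated data, with large changes placed in HT6h alone and only in genes with many fragments. That run does not show how well changes are found near the thresholds, at 3 h or in genes with few fragments.

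Named members were those called over the 7 or the 9 libraries and the 2 most abundant of each family, and from each other auxin list the 2 called genes with the largest change at 6 h and a mean FPKM of 1 or more. Others are said to be chosen after their values were seen. The members, the lists and the tests were chosen with earlier results of these data known. A RefSeq table of 23999 genes matched 0 of the CsaV3 identifiers, so genes carry their identifiers alone. Alternatives were all 9 libraries, a block for the replicate number, 1 and 0.01 as pseudocounts, no filter and a filter at a mean FPKM of 1, only the groups compared, 3 other scalings, no trend, limma voom on recovered fragments, and each of the 7 libraries left out.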

Additional observations from a re-analysis of the deposited data

How the results depend on the processing

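With 2 heated libraries per group in the tests, single libraries decide many calls near the thresholds. Across the 21 alternatives, the 13 Aux/IAA genes called over the 7 libraries kept their direction in all 394 values, and 64 of these values were no longer calls. No Aux/IAA gene was called higher under any setting. Calls of 3 genes at 3 h and 4 at 6 h held in all 21. Depth limits CsaV3_3G026270, with 9 fragments in the 3 HT0h libraries together. Leaving out 1 library at a time gave 6 to 12 member calls at 3 h, 7 to 11 at 6 h and 0 between 6 h and 3 h, where an arm left with 1 library is assumed to vary like the others.

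Same-numbered libraries of different groups did not pair throughout. Over 9 such pairs the correlation of deviations from the group means ran from -0.281 to 0.567, with 2 pairs over 0.1. These 2 joined heated libraries, HT3h_3 with HT6h_3 at 0.567 and HT3h_2 with HT6h_2 at 0.377. The crossed pairs were at -0.472 for HT3h_2 with HT6h_3 and -0.444 for HT3h_3 with HT6h_2. Only 1 of 9 libraries was closest to its own number in both other groups. With the replicate number as a block, 5 members were called at 3 h over the 7 libraries, in place of 9, and the counts of 8 at 6 h and of 11 and 8 over all 9 libraries stayed within 1.5 times of the unblocked ones.

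The count over all genes between 6 h and 3 h, 39 over the 7 libraries (17 higher), was unstable. It was 73 over all 9 libraries, 0 with the block over the 7 libraries and 39 with it over all 9 (12 higher), 115 with a pseudocount of 1 (76 higher), 20 with a pseudocount of 0.01 (5 higher), 0 with only the groups compared, 59 at each library's own total (37 higher), 111 with voom over 7 libraries (73 higher) and 74 with voom over 9. Leaving out 1 library gave 0 to 31. Scaling to the library's own total moved the mean HT6h sum from 343.3 to 378.1 FPKM for Aux/IAA and from 254.5 to 281.2 FPKM for ARF.

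Values near 0 changed sign. CsaV3_1G000090 at 6 h was 0.0099 at each library's own total. CsaV3_3G023550 at 6 h was 0.13 with the block, 0.0079 after median-of-ratios rescaling, 0.12 after quantile normalization, 0.19 at the own total and 0.0084 with voom, and -0.21 to 0.13 with 1 library left out. CsaV3_4G002130 at 3 h was 0.033 with a pseudocount of 1 and -2.11 to 1.82 with 1 library left out. At 6 h it was -0.89 over all 9 libraries with or without the block, -0.0096 after quantile normalization, -0.97 with voom over 9, and -0.76 to 0.92 with 1 library left out. The causes were not tested.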
